A study of Mus musculus with 24 samples.

Results

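Mouse embryonic stem cells without TRIM33 were compared with wild-type cells after induction of the transcription factor DUX. The comparison is TRIM33-knockout (KO) cells against the wild-type (WT) line 2, chosen by library title: 2 libraries of TRIM33-KO with doxycycline (DOX) and 2 of WT line 2 with DOX, 4 of the 24 libraries in the series. All of these cells are KH2 embryonic stem cells, a mouse line built for DOX-inducible transgenes, and all carry the inducible DUX transgene (TRE_DUX). DOX was given for 16 hours. Every title also carries the tag pLV2, which the labels do not explain. The KO titles carry the number 1 after pLV2 and those of WT line 2 the number 2, and the labels do not say which of the 2 pLV2 WT lines is the control of which knockout. The genotype is TRIM33_KO or WT, and the KO is a single line. Replicates 1 and 2 are not stated to be separate cultures, so p-values measure only spread between libraries. That spread was estimated over all 16 pLV2 libraries, which also include WT line 1 and TRIM24-KO cells, with and without DOX. In 4 of the 8 libraries of TRIM33-KO and WT line 2 the treatment tag disagrees with the title. The titles were followed. Cells were cultured on gelatin or, alternatively, on a feeder layer of mouse embryonic fibroblasts, and which of these applied to which library is not given.

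DUX is a double-homeobox activator that is made at the 2-cell (2C) stage of the mouse embryo. When it is expressed in embryonic stem cells, it switches on genes and endogenous retroviruses of that stage, above all the retrovirus MERVL and the genes that use its promoter, the long terminal repeat MT2_Mm. TRIM33 (TIF1γ) belongs to the TIF1 family of chromatin cofactors and ubiquitin ligases together with TRIM24, TRIM28 and TRIM66. It binds SMAD proteins of the TGFβ pathway and, in the germ line, is known to restrain RLTR10B retroviral repeats. TRIM24 is known to restrain VL30 retroviral repeats, and TRIM28 silences many retroviral repeats.

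The 4 induced libraries held 12704430 and 12703385 gene counts in WT line 2 and 11967607 and 11784696 in TRIM33-KO. Levels are given as CPM, counts scaled to the gene counts of each library times its TMM normalization factor. The factors were 1.03 and 1.06 in WT line 2 and 0.94 and 0.783 in TRIM33-KO, so levels in TRIM33-KO replicate 2 are higher than on gene counts alone. Values are given with the WT line 2 libraries before those of TRIM33-KO and replicate 1 before replicate 2. A single ribosomal RNA gene, CT010467.1, took 12.85% of the gene counts in TRIM33-KO replicate 2 and between 0.3634% and 0.6426% in the other induced libraries. Embryonic stem cell markers were high in all 4: Pou5f1 had 540.2 and 521 CPM in WT line 2 and 559 and 500.1 CPM in TRIM33-KO. Of 19 fibroblast markers, Col3a1, Lum, S100a4 and Mgp had 0 counts in all 4 libraries and 8 had at most 3 counts in each. The summed level of the 10 fibroblast markers tested was 372 and 349 CPM in WT line 2 and 349.5 and 359 CPM in TRIM33-KO, and none was called by edgeR (3 at an unadjusted p under 0.05; DESeq2 called 1, lower).

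Trim33 RNA was reduced but not absent in the knockout. It was 85.2 and 98.9 CPM in WT line 2 and 18.1 and 16.9 CPM in TRIM33-KO after DOX. The groups were far apart, and the level in TRIM33-KO was 5.24-fold lower (log2 fold change -2.39 ± 0.08 SE, edgeR quasi-likelihood test with Benjamini-Hochberg adjustment, adjusted p = 3.58e-11). Before DOX the difference was of similar size (log2 fold change -2.48). Which part of the gene was deleted is not given, so the remaining reads do not tell whether protein was made. Trim24, of the same family, had 199 and 174 CPM in WT line 2 and 242 and 271 CPM in TRIM33-KO, with both KO libraries above both WT libraries. It rose 1.37-fold (log2 fold change 0.46 ± 0.09, adjusted p = 0.0141), a call that was lost without TRIM33-KO replicate 2 and without WT line 2 replicate 2. Trim28 (log2 fold change 0.16, adjusted p = 0.19) and Trim66 (-0.49, adjusted p = 0.551) did not pass by edgeR, whereas DESeq2 called Trim28 (0.18, adjusted p = 0.033).

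After induction, TRIM33-KO had higher levels of many genes and of a large share of repeat subfamilies. Of 18079 genes tested, 615 (3.4%) passed an adjusted p of 0.05, with 482 higher (2.67%) and 133 lower (0.736%) in TRIM33-KO. Of 965 repeat subfamilies, 438 (45.4%) passed, with 437 higher (45.3%) and 1 lower (0.104%). The median log2 fold change was 0.00 over all genes and 0.37 over all repeat subfamilies. Most differences were small: 93 genes were called higher and 38 lower with a log2 fold change of at least 1, and 11 repeat subfamilies were higher and 1 lower by this size. The number of genes called was 124 without TRIM33-KO replicate 1, 243 without TRIM33-KO replicate 2, 517 without WT line 2 replicate 1 and 129 without WT line 2 replicate 2. The number of repeat subfamilies called was 268 without TRIM33-KO replicate 1 and 192 without WT line 2 replicate 2.

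Genes of the 2C state were higher in TRIM33-KO as a group, mostly by small folds. Of 43 such genes tested, 40 had a higher level in TRIM33-KO, and in 39 both KO libraries lay above both WT libraries, against 4295 of all 18079 genes. The median log2 fold change was 0.60, beside 0.00 over all genes. edgeR called 15 of the 43 higher (34.9%, against 2.67% of all genes). Their summed level was 16999.7 and 12708 CPM in WT line 2 and 24778 and 22543 CPM in TRIM33-KO, so replicate 2 of WT line 2 was the lowest of the 4. These calls depended on single libraries: none was called without TRIM33-KO replicate 1 (28 at an unadjusted p under 0.05) or without WT line 2 replicate 2 (22 unadjusted), 5 without TRIM33-KO replicate 2 and 18 without WT line 2 replicate 1, while DESeq2 on all libraries called 19, edgeR on the compared groups alone 26 and edgeR without a filter on low counts 36. The median stayed at 0.50 without TRIM33-KO replicate 1 and 0.46 without WT line 2 replicate 2, with 40 and 41 of the 43 higher. Before DOX these genes summed to only 86.8 and 92.4 CPM in WT line 2 and 104 and 97 CPM in TRIM33-KO. Their median log2 fold change there, fitted mostly from few counts, was 0.69 (29 higher, 8 lower), and the median of the difference in DOX effect was -0.20. In bulk RNA, a larger fraction of cells in the 2C-like state and more RNA per cell in that state cannot be told apart. Zscan4, Usp17l, Pramef, Tdpoz and Eif1a-like genes are near-identical copies that can share reads, as do young repeats, and how the authors' counting split such reads is not given in the sources used here, so values of single copies are uncertain.

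Promoters of 4 called 2C genes with the largest folds among those with a RefSeq promoter are shown here, since DUX is known to bind promoters of this state. Each is the 250 bases before the RefSeq transcript start nearest to the annotated 5′ end (build GRCm38.p6), on the strand of the gene. Capitals mark a match, on either strand, to TGATT followed by any 2 bases and ATCA. This is a looser form of the core of the motif known for mouse DUX, TGATT followed by any 1 base and AATCA.
Sp110 (chr1:85598811-85599060, minus strand): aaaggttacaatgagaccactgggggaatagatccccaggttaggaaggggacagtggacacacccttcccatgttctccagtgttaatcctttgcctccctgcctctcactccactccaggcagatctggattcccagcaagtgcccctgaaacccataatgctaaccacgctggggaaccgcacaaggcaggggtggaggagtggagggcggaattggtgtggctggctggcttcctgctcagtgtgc
Zscan4b (chr7:10905051-10905300, minus strand): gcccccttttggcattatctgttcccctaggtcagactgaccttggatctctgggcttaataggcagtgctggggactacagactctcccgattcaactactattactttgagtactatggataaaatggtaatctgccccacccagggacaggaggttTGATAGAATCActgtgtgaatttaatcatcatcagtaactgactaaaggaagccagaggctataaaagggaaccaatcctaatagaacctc
Usp17lc (chr7:103416446-103416695, plus strand): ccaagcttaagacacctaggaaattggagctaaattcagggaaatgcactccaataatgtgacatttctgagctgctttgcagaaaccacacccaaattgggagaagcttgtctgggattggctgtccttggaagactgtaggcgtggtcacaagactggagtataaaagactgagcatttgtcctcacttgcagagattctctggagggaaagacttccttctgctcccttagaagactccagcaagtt
Abcb5 (chr12:118966422-118966671, minus strand): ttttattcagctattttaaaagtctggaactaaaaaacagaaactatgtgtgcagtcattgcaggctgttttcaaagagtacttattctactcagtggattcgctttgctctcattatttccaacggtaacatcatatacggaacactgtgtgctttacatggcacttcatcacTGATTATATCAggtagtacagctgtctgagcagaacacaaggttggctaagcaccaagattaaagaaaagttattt
The DUX core was in 11 of 32851 RefSeq promoter windows of 300 bases (0.0335%) and in 0 of the 206 windows of the genes that DOX raised in plain WT cells. The looser letters, searched after that result was seen, were in 68 of all windows (0.207%) and in 5 of the 206 (2.43%), those of Abcb5, Zscan4b, Zscan4c, Zscan4d and Zscan4f. In Abcb5 the match began 76 bases before the transcript start on the strand printed, and in Zscan4b 91 bases before it, read on the other strand. Such a match describes the letters only, and promoters of near-identical Zscan4 copies share sequence.

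The Zscan4 cluster on chromosome 7 encodes zinc-finger proteins that mark the 2C-like state. All 6 members had higher levels in TRIM33-KO (log2 fold changes 0.63 to 0.82, median 0.70), but only Zscan4b passed. DESeq2 called 0 of the 6 (1 at an unadjusted p under 0.05), and edgeR on the compared groups alone called 6. Before DOX the median was 1.21, from summed levels of 1.79 and 1.96 CPM in WT line 2 and 5.67 and 2.31 CPM in TRIM33-KO. Zscan4b, whose promoter is printed above, had 1179 and 768 CPM in WT line 2 and 1725 and 1718 CPM in TRIM33-KO (1.77-fold, log2 fold change 0.82 ± 0.21, adjusted p = 0.046). The KO libraries were alike, and WT replicate 2 was lower than WT replicate 1. Zscan4c, used most often to mark this state, had 1269 and 893 CPM in WT line 2 and 1744 and 1609 CPM in TRIM33-KO without passing (adjusted p = 0.0738). Without WT line 2 replicate 2 the median of the cluster was 0.46, and without WT line 2 replicate 1 it was 1.02.

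The Usp17l genes, which encode deubiquitinating enzymes, gave 3 calls among 5 members with a median log2 fold change of 0.75. This count and those of the next lists stand beside 2.67% of all genes called higher. Usp17lc had 432 and 396 CPM in WT line 2 and 750.3 and 681 CPM in TRIM33-KO. The groups did not overlap, and the gene rose 1.73-fold (log2 fold change 0.79 ± 0.16, adjusted p = 0.0129). Usp17le rose by a log2 fold change of 0.80 and Usp17la by 0.62, whereas Usp17ld (0.75, adjusted p = 0.0549) and Usp17lb (0.46, adjusted p = 0.123) did not pass. The Pramef genes encode leucine-rich repeat proteins of germ cells and early embryos. All 6 tested had higher levels, and 4 were called: Pramef25 (log2 fold change 0.66), Gm12794 (0.65), Pramef17 (0.56) and Pramef8 (0.36). Pramef8 was lost under 8 of 12 alternatives. Tcstv1, a gene of the 2C state, had 142 and 126 CPM in WT line 2 and 243 and 195 CPM in TRIM33-KO and rose 1.63-fold (adjusted p = 0.0129), the only call among 7 Tcstv and Tdpoz genes. The 6 genes that resemble the translation factor Eif1a were all higher (median 0.51), with 0 called by edgeR (5 at an unadjusted p under 0.05) and 2 by DESeq2.

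Single-copy 2C genes gave 6 calls among 13 tested, where 2.67% of all genes were called higher. Sp110, a nuclear body protein, had 641 and 561 CPM in WT line 2 and 1145 and 1052 CPM in TRIM33-KO (1.83-fold, log2 fold change 0.87 ± 0.20, adjusted p = 0.0241). Abcb5, a membrane transporter, had 82.7 and 74.7 CPM in WT line 2 and 141 and 128 CPM in TRIM33-KO (1.71-fold, log2 fold change 0.77 ± 0.17, adjusted p = 0.0185). In both genes the lower KO library lay above the higher WT library. DESeq2 did not call Sp110 (adjusted p = 0.517), Abcb5 (adjusted p = 0.0527) or Zscan4b (adjusted p = 0.388). Zfp352, a zinc-finger gene of the 2C stage, had 172 and 195 CPM in WT line 2 and 288 and 269 CPM in TRIM33-KO (1.52-fold, adjusted p = 0.0451). Spz1, a transcription factor known from testis, rose 1.66-fold. Tmem92, a transmembrane protein, rose 1.47-fold. Rnf32 (log2 fold change -0.32, adjusted p = 0.781) and Pif1 (-0.30, adjusted p = 0.206) had the lowest values of the list. All 15 calls among the 2C genes were lost without TRIM33-KO replicate 1 and without WT line 2 replicate 2.

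The double-homeobox genes themselves did not pass. Duxf3, the mouse Dux gene, had 4.43 and 3.95 CPM in WT line 2 and 6.93 and 5.85 CPM in TRIM33-KO, from 58, 53, 78 and 54 counts (log2 fold change 0.61 ± 0.24, adjusted p = 0.218). On the CPM scale the KO libraries lay above the WT libraries, whereas the 54 counts of TRIM33-KO replicate 2 lay between the 53 and 58 of WT line 2. Whether transgene reads were counted under this gene is not given in the sources used here. Duxbl1, which encodes the DUX-like homeobox protein DUXBL, had 8.86 and 10.5 CPM in WT line 2 and 14.9 and 13.9 CPM in TRIM33-KO (log2 fold change 0.57 ± 0.24, adjusted p = 0.235).

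**Figure D1:**
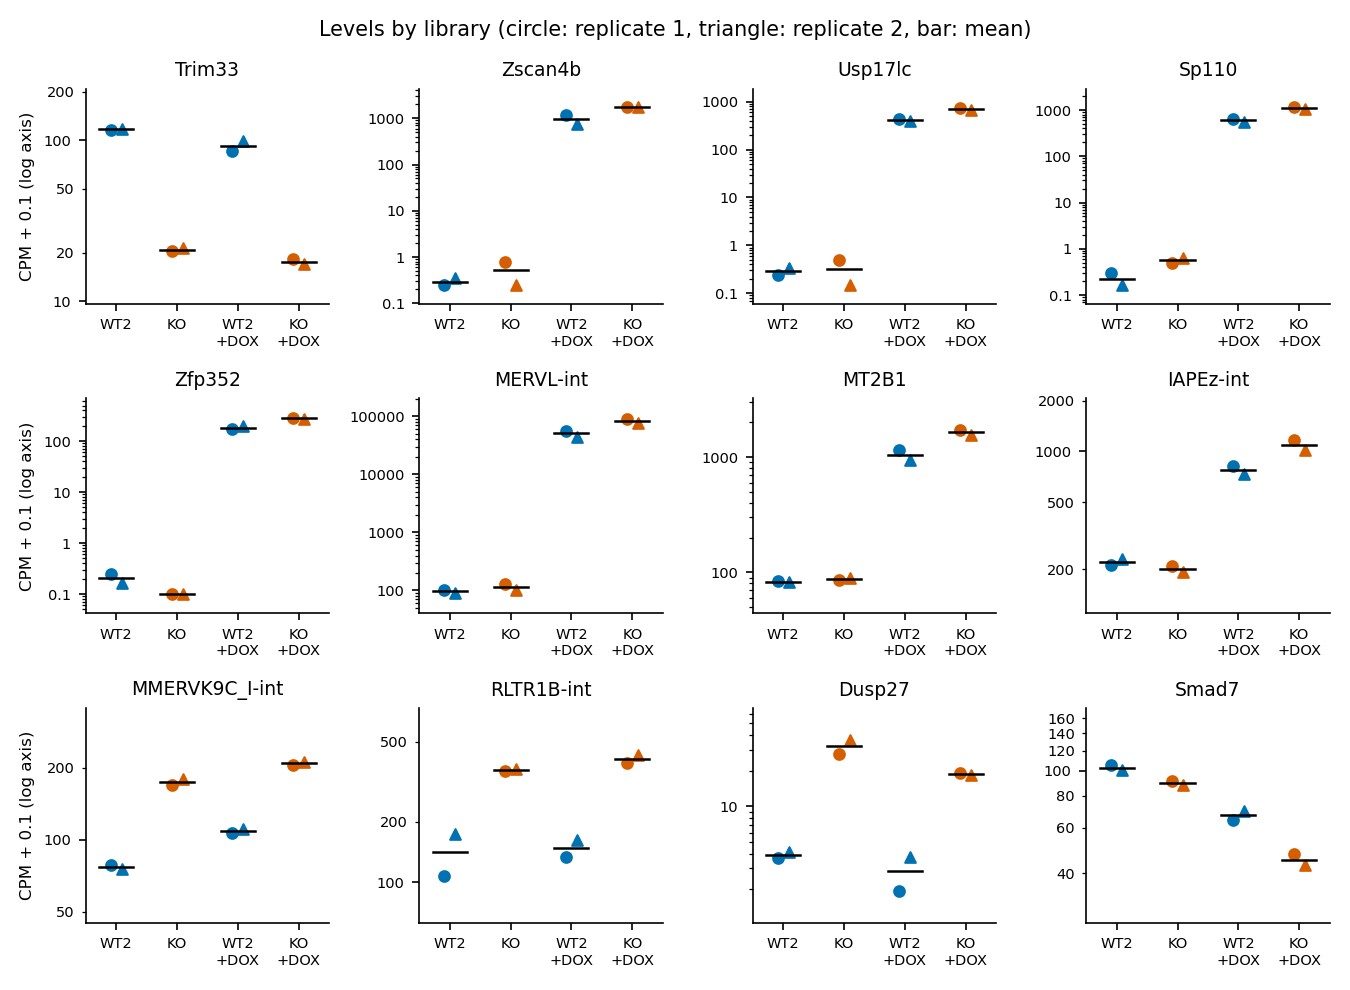
Levels of 12 genes and repeat subfamilies in each library of WT line 2 (WT2, blue) and TRIM33-KO (KO, orange), without and with DOX, as CPM plus 0.1 on log axes, with the mean as a bar. Zscan4b, Usp17lc, Sp110 and Zfp352 had at most 14 counts in each library before DOX and MERVL-int between 91.3 and 128 CPM, and all 5 were higher in TRIM33-KO after it, whereas MMERVK9C_I-int, RLTR1B-int and Dusp27 were already higher in TRIM33-KO before DOX.

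A broader list was taken from libraries outside the comparison: 502 genes raised by DOX at least 2-fold in the plain WT cells of the series. Of these, 500 had a higher level in TRIM33-KO than in WT line 2 after DOX, 466 of them with both KO libraries above both WT libraries, and the median log2 fold change was 0.63. Before DOX, 222 of the same genes were fitted as higher and 143 as lower, and the others had a fitted log2 fold change of 0. edgeR called 179 higher (35.7% of the list, against 2.67% of all genes), and these made up 37.1% of the 482 genes called higher. The summed level of the list was 44628 and 36208 CPM in WT line 2 and 67295 and 60886 CPM in TRIM33-KO. Both KO libraries were above both WT libraries, with WT replicate 2 again the lowest. The count was 12 without TRIM33-KO replicate 1, 81 without TRIM33-KO replicate 2, 166 without WT line 2 replicate 1 and 9 without WT line 2 replicate 2, with medians between 0.55 and 0.73, and DESeq2 called 216. edgeR called 290 with the compared groups alone and 339 without a filter on low counts. Of 59 genes lowered at least 2-fold by DOX in WT line 1, 21 had a higher and 38 a lower level in TRIM33-KO, with a median of -0.15. Of these, 1 was called higher and 3 lower (0.736% of all genes were called lower), and the calls depended on single libraries. The median ranged from -0.27 to -0.13 under the alternatives.

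The WT lines themselves differed in the same genes, and these side-by-side values share libraries with the comparison above. After DOX, the 2C genes had a median log2 fold change of 1.02 in WT line 2 over WT line 1 and of 1.72 in TRIM33-KO over WT line 1, beside 0.60 in TRIM33-KO over WT line 2. For the 502 DOX-raised genes the same 3 medians were 0.96, 1.61 and 0.63, and for all repeat subfamilies 0.46, 0.82 and 0.37. Between the WT lines, 7219 genes (39.9%) and 527 repeat subfamilies (54.6%) were called after DOX, more than between TRIM33-KO and WT line 2. Whole chromosomes differed between the WT lines: the median log2 fold change of WT line 2 over WT line 1 was 0.44 on chromosome 1, 0.34 on chromosome 6, 0.33 on chromosome 8 and 0.40 on chromosome 11. On these, 516 of 1125, 329 of 821, 378 of 946 and 676 of 1389 genes were called higher, against 3515 of all 18079. MERVL-int had 16217 and 19774 CPM in WT line 1, below all 4 libraries compared here. With 1 knockout line, the genotype and differences between lines cannot be told apart.

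Among repeats, the MERVL retrovirus and its long terminal repeat rose in TRIM33-KO. MERVL-int, the internal part that encodes the viral proteins, had 57014 and 44909 CPM in WT line 2 and 89941 and 75361 CPM in TRIM33-KO. Both KO libraries were above both WT libraries, as in 675 of all 965 repeat subfamilies (69.9%). MERVL-int rose 1.62-fold (log2 fold change 0.70 ± 0.16, adjusted p = 0.00274). MT2_Mm, the promoter repeat of MERVL, had 15658 and 12664 CPM in WT line 2 and 24381 and 20850.3 CPM in TRIM33-KO (log2 fold change 0.68, adjusted p = 0.00338), and its call was lost without WT line 2 replicate 2. As a share of all gene and repeat counts, these 2 subfamilies were 6.04% and 5.03% in WT line 2 and 8.28% and 6.11% in TRIM33-KO. All repeats together were 19.32% and 17.29% of the counts in WT line 2 and 22.98% and 18.87% in TRIM33-KO, so on this scale TRIM33-KO replicate 2, the library with the high ribosomal RNA count, lay below WT line 2 replicate 1. With library sizes that include the repeats, 431 subfamilies were called.

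Shares of called subfamilies differed between repeat families. Of 12 families with at least 10 tested subfamilies, ERVL-MaLR had the highest share called, 61 of 91 subfamilies (67.0%), followed by L1 with 79 of 127 (62.2%), ERVK with 155 of 271 (57.2%), ERV1 with 51 of 103 (49.5%) and ERVL with 32 of 95 (33.7%). These compare with 45.3% of all subfamilies. The medians of these 5 were alike, between 0.41 for ERVL-MaLR and 0.50 for ERV1. DNA transposons had lower shares, with 14 of 68 hAT-Charlie subfamilies (20.6%, median 0.15) and 10 of 41 TcMar-Tigger subfamilies (24.4%, median 0.20). Of 16 Alu-related SINE subfamilies, 4 were called (25.0%, median 0.11). Calls were few in the LINE family CR1, with 3 of 13 called and 7 of 13 lower in TRIM33-KO (median -0.10), in the LTR family Gypsy with 1 of 13 (median 0.16), in hAT-Tip100 with 2 of 25 higher and 1 lower (median 0.24) and in 12 other DNA transposons with 0 (median 0.16). Before DOX, the medians of the 12 families lay between -0.08 and 0.12.

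**Figure D2:**
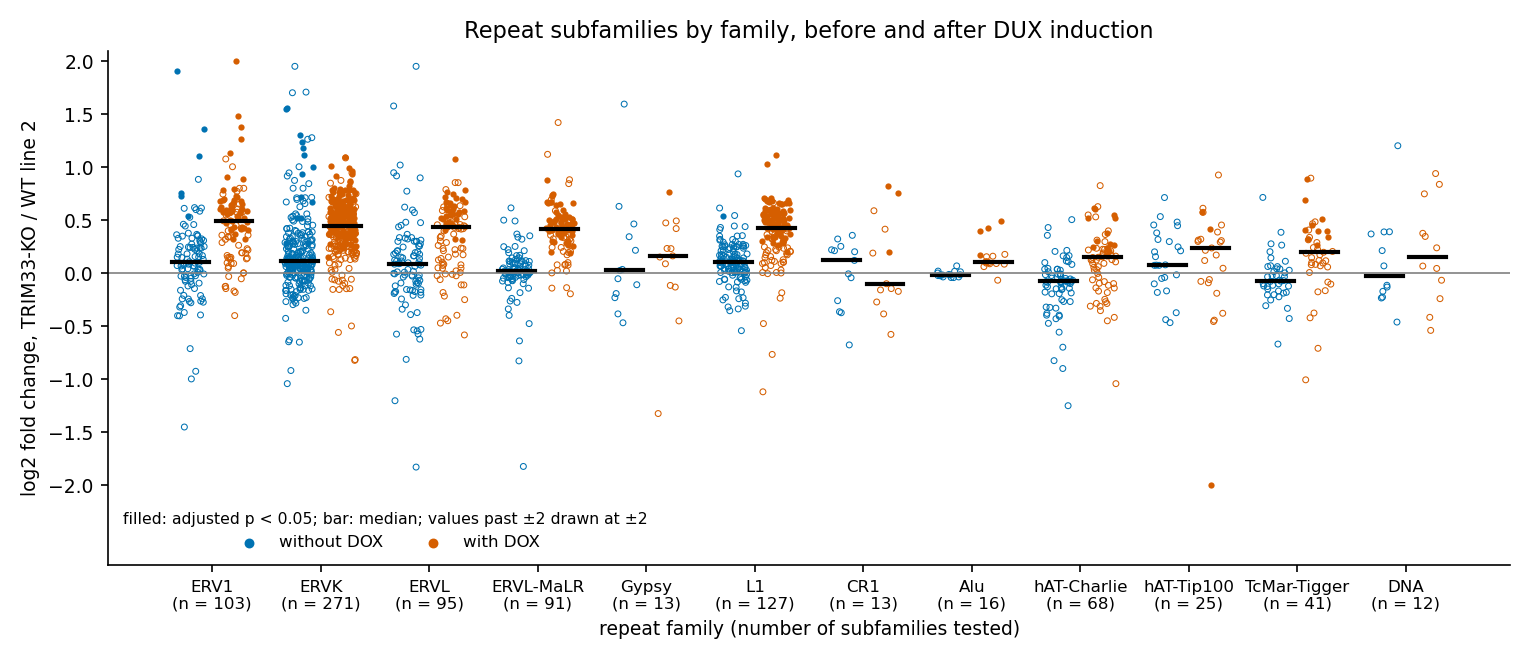
Log2 fold change of each repeat subfamily between TRIM33-KO and WT line 2, by family, without DOX (blue) and with DOX (orange), with filled points past an adjusted p of 0.05 and bars at the median of the family. The medians with DOX were above those without DOX in 11 of 12 families, such as 0.11 against -0.01 in Alu and 0.50 against 0.11 in ERV1, and below it in CR1 (-0.10 against 0.12).

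Older relatives of MERVL moved with it. All 12 tested MT2 and ERVL-MaLR subfamilies that are known to respond in the 2C-like state had higher levels (median log2 fold change 0.54). Of these, 11 were called, where 45.3% of all subfamilies and 67.0% of ERVL-MaLR subfamilies were called higher. MT2B1 had 1152 and 947 CPM in WT line 2 and 1732 and 1545 CPM in TRIM33-KO (1.56-fold, adjusted p = 0.00165). ORR1A3 rose from 237 and 193 CPM to 327 and 308 CPM (1.48-fold, adjusted p = 0.000586). In both, the KO libraries lay above the WT libraries without overlap, as in 69.9% of all subfamilies. MT2B2 (log2 fold change 0.53 ± 0.36, adjusted p = 0.24) was the member that did not pass.

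The subfamilies that are linked to TRIM33 or TRIM24 from earlier knowledge gave 5 calls among 6, where 45.3% of all subfamilies were called higher. RLTR10B, the repeat tied to TRIM33 in the germ line, was the one that did not pass, with 17.5 and 13.3 CPM in WT line 2 and 19.3 and 20.3 CPM in TRIM33-KO (log2 fold change 0.36 ± 0.18, adjusted p = 0.105). Its relative RLTR10B2 had 21.5 and 16.5 CPM in WT line 2 and 31.1 and 29.7 CPM in TRIM33-KO and rose 1.6-fold (adjusted p = 0.00445). MMVL30-int, the internal part of the VL30 retrovirus, had 177 and 137 CPM in WT line 2 and 244 and 227 CPM in TRIM33-KO and rose 1.5-fold (adjusted p = 0.00181). RLTR6B_Mm, a long terminal repeat of the same group, had 1041 and 718 CPM in WT line 2 and 1508 and 1523 CPM in TRIM33-KO (1.72-fold, adjusted p = 0.00391), and RLTR6_Mm rose 1.66-fold. Before DOX the median of the 6 was 0.19, and MMVL30-int had 26.1 and 27.9 CPM in WT line 2 and 30 and 33.6 CPM in TRIM33-KO. Without WT line 2 replicate 2, 2 of the 6 were called.

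Other retroviral, LINE-1 and SINE repeats that are active in mouse cells followed the same direction, and their counts are to be read against the 45.3% of all subfamilies called higher. IAPEz-int, the internal part of the intracisternal A particle, had 818 and 729 CPM in WT line 2 and 1175 and 1016 CPM in TRIM33-KO (1.42-fold, adjusted p = 0.00401). All 11 IAP and ETn subfamilies had higher levels (median 0.42), and 8 were called. Fewer were called without WT line 2 replicate 2 (median 0.37) or TRIM33-KO replicate 1 (median 0.39). All 5 young LINE-1 subfamilies rose (median 0.68, 1 of 5 without WT line 2 replicate 2). L1Md_T had 2462 and 1958 CPM in WT line 2 and 3573 and 5998 CPM in TRIM33-KO, with TRIM33-KO replicate 2 well above replicate 1 (log2 fold change 1.11 ± 0.40, adjusted p = 0.0327). Its call was lost under DESeq2 and without TRIM33-KO replicate 2 (0.69, adjusted p = 0.259), WT line 2 replicate 1 or WT line 2 replicate 2. L1Md_Gf rose 1.62-fold from 138 and 106 CPM to 203 and 191 CPM and kept its call without each library. All 5 SINE subfamilies on the list were called higher (median 0.50), B2_Mm1a from 11718 and 8949 CPM to 15074 and 17078 CPM. Fewer of the 5 were called without TRIM33-KO replicate 1 (median 0.39) or WT line 2 replicate 2 (median 0.33). Over all 35 SINE subfamilies tested, 34 had higher levels but only 12 were called (34.3%), with a median of 0.17. The major satellite GSAT_MM, the repeat of pericentromeric heterochromatin, had 448 and 296 CPM in WT line 2 and 672 and 687 CPM in TRIM33-KO (1.83-fold, adjusted p = 0.00221). Before DOX, log2 fold changes were 0.66 for GSAT_MM, 0.54 for L1Md_Gf and 0.67 for ETnERV2-int, with medians of 0.30 for young LINE-1, 0.03 for IAP and ETn and 0.02 for SINE subfamilies. After DOX, GSAT_MM was the 1 call among 3 satellite repeats (median 0.20), beside SYNREP_MM (0.16, adjusted p = 0.81) and MMSAT4 (0.20, adjusted p = 0.0813).

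Most of the repeat subfamilies with the smallest p-values differed before DOX as well. BGLII had 46.8 and 45.6 CPM in WT line 2 and 97.1 and 90 CPM in TRIM33-KO after DOX (2.02-fold, log2 fold change 1.02 ± 0.08, adjusted p = 4.4e-07), and its log2 fold change before DOX was 1.24. MMERVK9C_I-int, an ERVK internal sequence, had 107 and 111 CPM in WT line 2 and 206 and 212 CPM in TRIM33-KO (0.94 ± 0.07), and it had 78.2 and 75.6 CPM against 169 and 180.2 CPM before DOX. RLTR1B-int had 133 and 162 CPM against 393 and 429 CPM (2.79-fold, log2 fold change 1.48 ± 0.15, before DOX 1.36). In these 3 the replicates of each group were close and the groups far apart. LTRIS2 rose 2.2-fold (before DOX 1.10 on the log2 scale) and RMER16-int 1.73-fold (before DOX 0.52). In WT line 1 after DOX, RLTR1B-int had 277 and 301 CPM and MMERVK9C_I-int had 167 and 163 CPM, between WT line 2 and TRIM33-KO. LTRIS4B had the largest fold, but it came from 1 library: it had 0.917 and 1.27 CPM in WT line 2 and 2.84 and 187 CPM in TRIM33-KO, and its call was lost without TRIM33-KO replicate 2. The single subfamily called lower, ORSL-2a (named after its values were seen), rested on 8 and 11 counts in WT line 2 and 1 and 1 in TRIM33-KO.

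The test of whether the effect of DOX itself differed between TRIM33-KO and WT line 2 called 0 genes by edgeR (816 at an unadjusted p under 0.05, 411 of them with a larger effect in TRIM33-KO; DESeq2 called 15) and 1 of 965 repeat subfamilies (0.104%). That subfamily was L1MC2, an old LINE-1 repeat. It had 14.5 and 13.5 CPM in WT line 2 and 13.7 and 12.8 CPM in TRIM33-KO before DOX, and 51.4 and 44.9 CPM in WT line 2 and 79.7 and 76.2 CPM in TRIM33-KO after it. It rose with DOX by 1.78 in WT line 2 and by 2.56 in TRIM33-KO on the log2 scale, a difference of 0.78 (adjusted p = 0.0239). At an unadjusted p under 0.05 there were 246 repeat subfamilies, 237 of them with a larger effect in TRIM33-KO, and DESeq2 called 85. Without WT line 2 replicate 1 with DOX 42 subfamilies were called, and leaving out any other of the 8 libraries left 0. Without a filter on low counts edgeR called 73 genes in this test, and 1 with the compared groups alone. For most genes a difference seen only after DOX is therefore not shown to be larger than the one before it.

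Without DOX, TRIM33-KO and WT line 2 differed in 273 genes (1.51%), 203 higher (1.12%) and 70 lower (0.387%), and in 21 repeat subfamilies (2.18%), all higher, of which 14 were ERVK and 6 ERV1. These libraries are other than those compared after DOX, but all were fitted together and share 1 estimate of the spread. Of the genes, 172 were called in both conditions in the same direction (134 higher, 38 lower), which is 28.0% of the 615 called with DOX and 63% of the 273 called without it, and 0 were called in opposite directions. Of the repeat subfamilies, 19 were called in both, 4.34% of the 438 with DOX and 90.5% of the 21 without it. Of the 482 genes higher after DOX, 172 were neither on the DOX-raised list nor called before DOX.

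**Figure D3:**
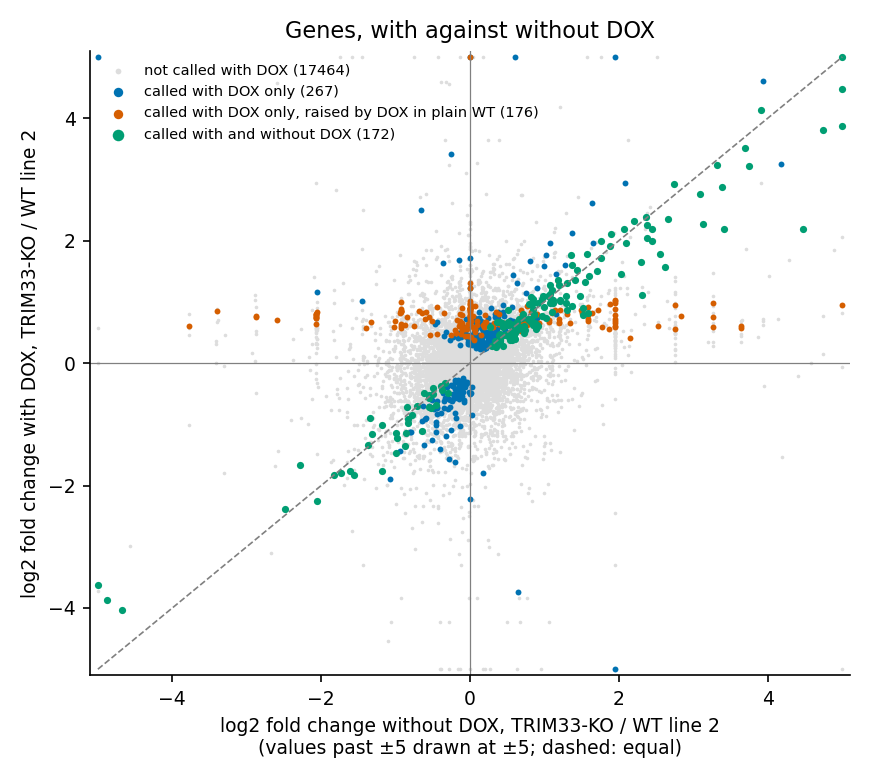
Log2 fold change of each gene between TRIM33-KO and WT line 2 with DOX against that without DOX, coloured by where it was called. The 172 genes called in both conditions have the same sign in both, some of them far from the dashed line of equal values (Gm12792, 2.19 with and 4.47 without DOX), and the called genes that DOX raised in plain WT cells spread along the horizontal axis, where they had few counts.

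The genes with the smallest p-values after DOX mostly differed before it as well. Inpp5d, a lipid phosphatase known from blood cells, had 22.7 and 21.5 CPM in WT line 2 and 63.2 and 62.4 CPM in TRIM33-KO (2.85-fold, log2 fold change 1.51 ± 0.09, adjusted p = 6.96e-08). Epha4, an ephrin receptor, had 23.8 and 21.9 CPM against 58.6 and 66.6 CPM (2.73-fold, log2 fold change 1.45 ± 0.09). Lama3, a laminin chain of basement membranes, had 12.4 and 11.4 CPM against 47.1 and 51.4 CPM (4.14-fold, 2.05 ± 0.13). In each of these the KO libraries lay far above the WT libraries and the replicates were close. Groups without overlap were a condition for naming these genes. Car2, a carbonic anhydrase, rose 3.89-fold, Etl4 2.86-fold and Dsg2, a desmosomal cadherin, 2.05-fold. Before DOX their log2 fold changes were 1.7 for Inpp5d, 2.03 for Epha4, 2.38 for Lama3, 2.1 for Car2, 1.44 for Etl4 and 1.11 for Dsg2. Gm9732, a gene without a named function, had 1.07 and 1.19 CPM in WT line 2 and 17 and 15 CPM in TRIM33-KO (14-fold).

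Several of these genes had the KO level in WT line 1 too. After DOX, Inpp5d had 67.4 and 62.3 CPM and Etl4 had 142 and 135 CPM in WT line 1, against 128 and 144 CPM of Etl4 in TRIM33-KO. Dusp27, a muscle phosphatase-like gene, had 1.83 and 3.65 CPM in WT line 2, 19 and 18.3 CPM in TRIM33-KO and 19.2 and 18.5 CPM in WT line 1. Its neighbour Gpa33, a cell-surface antigen of gut epithelium, had 5.65 and 9.4 CPM in WT line 2, 52.2 and 62 CPM in TRIM33-KO and 56.2 and 54.1 CPM in WT line 1. For these 4 genes WT line 2 was the low line of the 3. Gm9732 differed from both WT lines, with log2 fold changes of 3.81 over WT line 2 and 3.67 over WT line 1, as did AC160336.1 (2.28 and 3.01), C130073F10Rik (2.36 and 1.44), Car2 (1.96 and 1.33) and Epha4 (1.45 and 1.04).

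Gm7971, a predicted gene, was not detected in WT line 2. It had 0 and 0 counts in WT line 2 and 381 and 239 counts in TRIM33-KO after DOX, at least 132-fold higher taking 3 counts per library as the floor. Without DOX it had 0 or 1 count in each of the 4 libraries. Its near copy Gm7978 (named after its values were seen) had 0 and 0 counts against 282 and 178. Both were present in WT line 1 after DOX, Gm7971 at 14.5 and 16.4 CPM and Gm7978 at 13.2 and 17.4 CPM, and reads can be shared between them.

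Genes called in both conditions lay next to each other at 12 places in the genome, within 200 kb. On chromosome 1 these were Pou2f1, Dusp27, Gpa33 and Mael, where Mael, a gene of retroviral silencing in germ cells, rose from 3.21 and 4.1 CPM to 7.47 and 7.7 CPM. On chromosome 2 they were A930004D18Rik, Skida1 and Mllt10, with log2 fold changes after DOX of 2.32, 3.22 and 1.04. On chromosome Y they were Eif2s3y, Uty and Ddx3y, all lower. Groups were formed separately for higher and for lower genes, so the members of each share a direction by construction. How often tested genes lie this close in general was not tested. Nefm and Nefl on chromosome 14 overlap in the annotation, so their reads cannot be assigned with certainty.

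Fewer genes were lower in TRIM33-KO. Apart from Trim33, the lowest p-values belonged to Pdgfc, a growth factor, which had 12.7 and 13.1 CPM in WT line 2 and 4.8 and 4.44 CPM in TRIM33-KO (2.78-fold lower, log2 fold change -1.48 ± 0.14, adjusted p = 1.26e-05). Pou2f3, a transcription factor known from chemosensory tuft cells, had 9.93 and 10.6 CPM against 2.13 and 2.17 CPM (4.76-fold lower). Ccnd2, the cell-cycle regulator cyclin D2, had 9.47 and 11.4 CPM against 3.91 and 2.6 CPM (3.16-fold lower). All 3 also fell before DOX (log2 fold changes -1.0, -2.05 and -2.29). Their groups did not overlap after DOX, which was a condition for naming them. Calb2, a calcium-binding protein, fell 3.38-fold. Sik1, a salt-inducible kinase, had 85 and 93.2 CPM in WT line 2 and 63.7 and 63.7 CPM in TRIM33-KO (log2 fold change -0.48 ± 0.07, adjusted p = 0.000866). Of the 133 genes lower after DOX, 95 were not called before it.

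The Y-linked gene Eif2s3y, a translation initiation factor, had 32.5 and 52.1 CPM in WT line 2 and 4 and 2.71 CPM in TRIM33-KO (12.4-fold lower), and 28.8 and 45 CPM against 0.646 and 0.768 CPM before DOX. Uty and Ddx3y (both named after their values were seen) were 14.6-fold and 16.4-fold lower after DOX. Of 13 chromosome Y genes tested, these 3 were called lower (0.736% of all genes were), with a median of -0.92, and 1 of them, Eif2s3y, was still called without TRIM33-KO replicate 1, TRIM33-KO replicate 2 or WT line 2 replicate 2. The WT replicates differed in these genes too, as did those of WT line 1, where Uty had 5.02 and 28.6 CPM. Loss of the chromosome in a fraction of cells was not tested.

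Of the TGFβ pathway, only feedback inhibitors and 1 ligand chain passed, all lower. Smad7, an inhibitory SMAD that is itself a target of the pathway, had 64.3 and 69.8 CPM in WT line 2 and 47.4 and 42.8 CPM in TRIM33-KO. Both KO libraries were below both WT libraries (1.48-fold lower, log2 fold change -0.57 ± 0.08, adjusted p = 0.000953), a call kept under all 12 alternatives, whereas before DOX it was -0.20 (adjusted p = 0.274). Lefty1, an antagonist of NODAL, had 16.7 and 26.5 CPM in WT line 2 and 10.6 and 12.4 CPM in TRIM33-KO (log2 fold change -0.92 ± 0.24, adjusted p = 0.046). Inhbb, the activin B chain, had 28.8 and 25.7 CPM against 18 and 14.1 CPM (-0.76 ± 0.19, adjusted p = 0.0375). Without each of TRIM33-KO replicates 1 and 2 and WT line 2 replicate 2, Lefty1 and Inhbb were not called. These were 2 of 14 inhibitors tested (median -0.12) and 1 of 9 ligands (median -0.06), beside 0.736% of all genes called lower. Among 12 receptors (4 at an unadjusted p under 0.05, median -0.14), 6 signalling SMADs (0 unadjusted, median -0.11) and 11 target genes (2 unadjusted, median -0.02), edgeR and DESeq2 both called 0.

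Pluripotency genes differed little. Of 19 naive pluripotency genes, 0 were called by edgeR (6 at an unadjusted p under 0.05) and 1 by DESeq2, lower, and the median was -0.05. Nanog had 638 and 582 CPM in WT line 2 and 667 and 713 CPM in TRIM33-KO (log2 fold change 0.18, adjusted p = 0.254), and Sox2 had 269 and 292 CPM against 242 and 261 CPM (-0.15, adjusted p = 0.261). Of 10 primed and formative genes, Dnmt3b, a DNA methyltransferase, rose from 106 and 123 CPM to 147 and 146 CPM (log2 fold change 0.35, adjusted p = 0.0245). Otx2, a transcription factor of the primed state, fell from 7.79 and 11.3 CPM to 4.62 and 6.29 CPM (-0.82, adjusted p = 0.0363). Both calls were lost without either TRIM33-KO library. Markers of endoderm and mesoderm (12 tested, 1 unadjusted), trophoblast (10 tested, 2 unadjusted) and neural cells (5 tested, 1 unadjusted) gave 0 calls by edgeR and 0 by DESeq2.

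**Figure D4:**
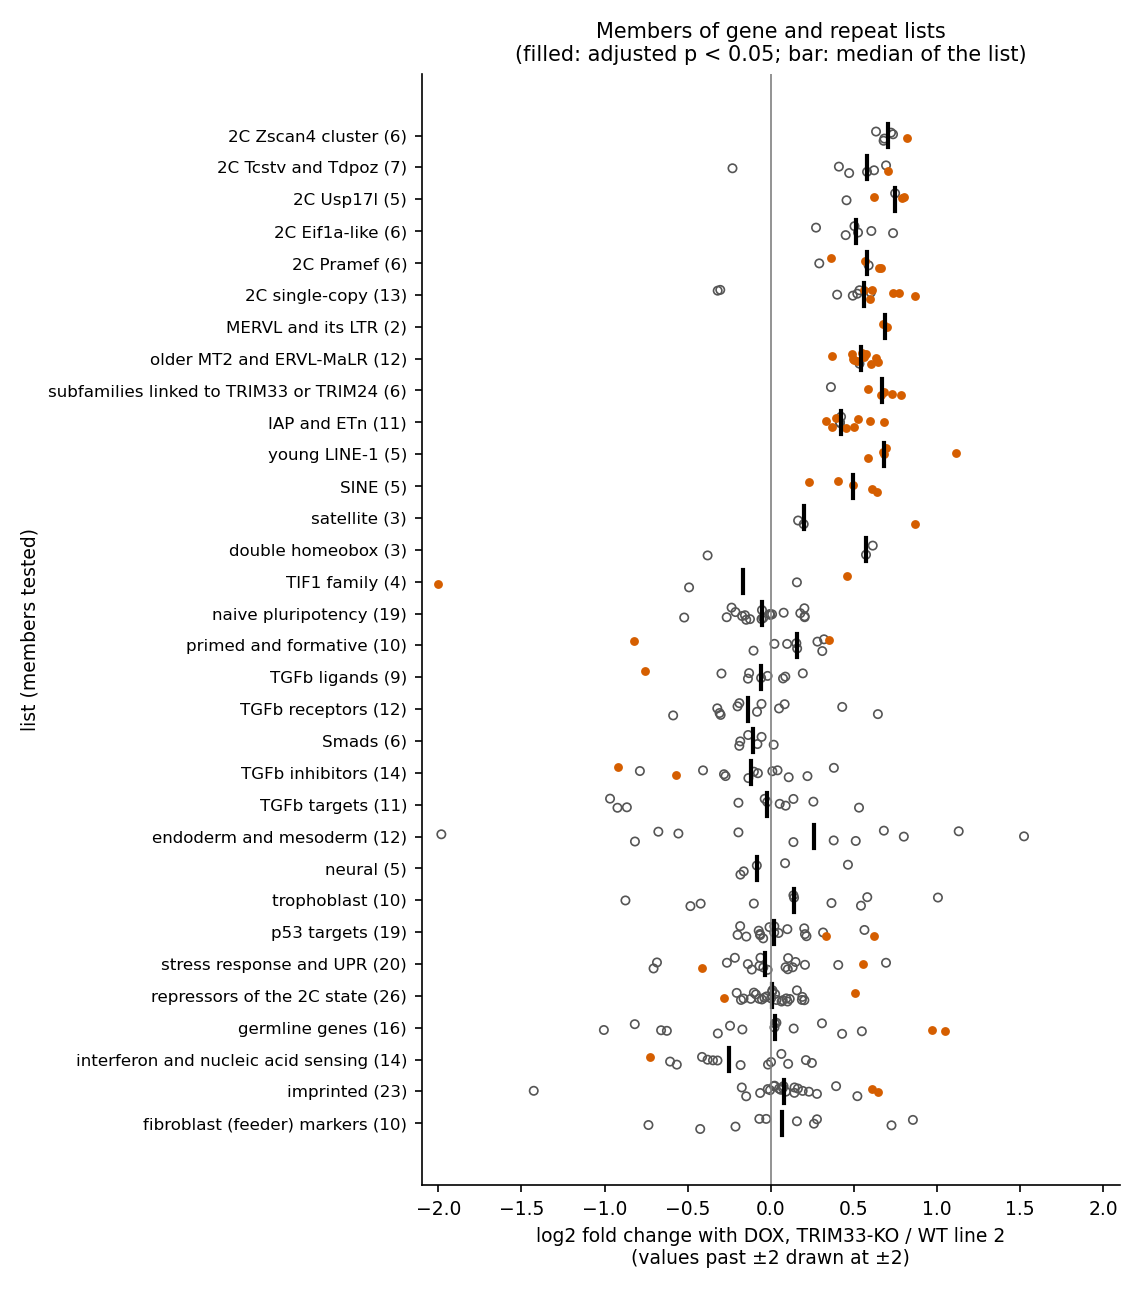
Log2 fold change between TRIM33-KO and WT line 2 with DOX for each tested member of 32 lists, with filled points past an adjusted p of 0.05 and bars at the median of the list. The medians of the 13 lists of 2C genes and repeats lie between 0.20 (satellite repeats) and 0.75, and those of the 19 other lists between -0.25 and 0.26, apart from the 3 double-homeobox genes at 0.57.

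Other lists gave 1 or 2 calls each, which are shares above the 3.4% of all genes but rest on 1 or 2 genes. Among 26 repressors of the 2C state, Zfp809, a zinc-finger protein that recruits TRIM28 to retroviral repeats, had 93.9 and 86.9 CPM in WT line 2 and 133 and 124 CPM in TRIM33-KO (1.42-fold, adjusted p = 0.0108), and the RNA-binding protein Lin28a fell by 0.28 on the log2 scale. Among 20 stress genes, Ppp1r15a, which restarts translation after stress, had 40 and 34.4 CPM in WT line 2 and 53.4 and 55.8 CPM in TRIM33-KO (1.47-fold, adjusted p = 0.00398), and Xbp1, a factor of the unfolded protein response, fell by 0.41 on the log2 scale. Among 19 p53 targets, Plk2 rose by 0.62 and Mdm2, the ubiquitin ligase of p53, by 0.33. Among 16 germline genes, Mael rose by 1.05 and Stk31 by 0.97. Among 23 imprinted genes, the growth inhibitor Cdkn1c rose by 0.64 and the zinc-finger gene Plagl1 by 0.61. Among 14 genes of interferon and nucleic acid sensing, Bst2, an antiviral membrane protein, had 19.9 and 16.8 CPM in WT line 2 and 11.8 and 10.3 CPM in TRIM33-KO and fell by 0.72. Each of these calls was lost without at least 1 library, that of Ppp1r15a without WT line 2 replicate 2 only.

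Of the libraries of TRIM33-KO and WT line 2, WT line 2 replicate 2 had the lowest summed levels of chromosomes 1 and 8, with and without DOX, and WT line 1 was lower than WT line 2 on both, as given above. The summed level of chromosome 8 was 42121 and 37751 CPM in WT line 2 and 42910.4 and 43039.9 CPM in TRIM33-KO after DOX. On chromosome 1, 52 of 1125 genes were called higher (4.62%) and 5 lower. Its median log2 fold change was 0.070, and 0.004 without WT line 2 replicate 2. On chromosome 8, 31 of 946 were called higher (3.28%) and 7 lower. Its median was 0.061, and -0.010 without that library. Over all 18079 genes, 482 were called higher (2.67%) and 133 lower. The median of all genes was 0.002, and 0.005 without that library. Genes on chromosome 1 named here include Inpp5d, Epha4, Dusp27, Gpa33, Sp110, Lefty1 and Inhbb. A gain or loss of these chromosomes was not tested. Mitochondrial genes summed to 127629 and 122227 CPM in WT line 2 and 156999 and 199262 CPM in TRIM33-KO, with 23 of 28 higher, a median of 0.30 and 0 called by edgeR (12 at an unadjusted p under 0.05; DESeq2 called 2). Their part in the other results was not tested.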

How the data were processed

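RNA-seq counts of 24 libraries were used as deposited by the authors: whole-number counts per gene and per repeat subfamily. Libraries were rRNA-depleted and directional, per the labels' protocols. The submitters' processing notes name mm10, STAR 2.7.6a, cutadapt 1.18 and bcl2fastq 2.20.0, and the counting tool, its strand setting and its treatment of reads with several positions are not given in the sources used here. Antisense and overlapping genes may therefore share reads. Symbols were matched through GENCODE M21: 54435 of 55487 identifiers exactly, 792 without version, 260 not.

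The 16 pLV2 libraries were WT lines 1 and 2, TRIM24-KO and TRIM33-KO, each with and without DOX. They were fitted together with edgeR 4.0.16 (quasi-likelihood, R 4.3.3), 1 mean per group, TMM factors from gene counts and filterByExpr by group. In replicate 2 of TRIM24-KO with DOX, CT010467.1 took 30.43% of the gene counts. Adjusted p-values (Benjamini-Hochberg) were computed over genes and over repeat subfamilies separately, with calls under 0.05. Errors of log2 fold changes are standard errors. Tested on simulated data for TRIM33-KO against WT line 2 with DOX (18079 genes), 87 of 100 genes with a true log2 fold change of 1 and 100 of 100 with 2 were called, and 5 of 17879 unchanged ones. Replicates correlated at 0.98 in both induced groups and were no duplicates. Alternatives were DESeq2 1.42.0, other scalings and filters, a replicate block, a fit of the compared groups alone and leaving out each library.

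The comparison, its gene lists and the named genes were chosen with earlier results of these data known. Named were all list members and, besides, genes with a mean of at least 50 counts, no overlap between groups and a call without each library: the 8 higher and 8 lower with the smallest p and the 5 each with the largest fold. Repeats with a mean of at least 100 counts followed a like rule, 6 by p and 3 by fold. Results for 2 genes that the naming rule or lists hold are not reported here.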

Additional observations from a re-analysis of the deposited data

Results flagged for a closer look

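L1MC2, an old LINE-1 subfamily, was the single feature called in the main fit for a different response to DOX in TRIM33-KO and WT line 2 (edgeR quasi-likelihood, Benjamini-Hochberg adjustment). The DOX effect was 0.78 larger on the log2 scale in TRIM33-KO (adjusted p = 0.0239). Both induced KO libraries lay above both induced WT libraries, as in 69.9% of all subfamilies. The call was lost without most single libraries, as given above. Other fits called more subfamilies: DESeq2 85, edgeR on the compared groups alone 51 and without a filter on low counts 131. Before DOX the log2 fold change was -0.08 (adjusted p = 0.871).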

How the results depend on the processing

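With 2 libraries a group, single libraries decided most calls of small size. Without each library in turn, the count with DOX ranged from 124 to 517 genes and from 192 to 393 repeat subfamilies, and without DOX from 123 to 287 genes and from 15 to 20 subfamilies. The interaction ranged from 0 to 5 genes and from 0 to 42 subfamilies. A log2 fold change of at least 1 left 131 genes and 12 subfamilies with DOX, 111 genes and 10 subfamilies without DOX, and 0 subfamilies in the interaction. Without a filter on low counts the calls were 1139 genes with DOX, 622 genes and 71 subfamilies without DOX, and 73 genes and 131 subfamilies in the interaction. For the interaction, DESeq2 called 15 genes and 85 subfamilies, and the compared groups alone 1 gene and 51 subfamilies. With DOX, the counts under RLE size factors (673 genes) and DESeq2 (673 genes, 401 subfamilies) stayed within 1.5 times. Of 102 genes and subfamilies recomputed, 50 kept their side of the threshold under each of the 12 alternatives, and 2 that were not called changed sign. The log2 fold change of Pou5f1 was -0.0024, and became 0.017 with RLE size factors and 0.018 with DESeq2. It ranged from -0.085 to 0.068 without each library in turn, and that of Rnf32 from -0.69 to 0.10. The medians of 10 of 35 lists, at most 0.26 in size, changed sign under at least 1 alternative, among them TGFβ ligands (-0.19 to 0.07), TGFβ targets (-0.17 to 0.12) and primed and formative genes (-0.01 to 0.28). The labels do not say that replicate numbers pair libraries. The correlation of deviations between libraries of the same number was 0.0451 between the induced groups and 0.195 between WT line 2 with and without DOX. With the replicate block 695 genes and 437 subfamilies were called.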
